A study of Mus musculus with 15 samples.

Results

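The response of CT26 cells to GSK3368715, an inhibitor of type I protein arginine methyltransferases, was described in the 3 libraries of cells given the inhibitor and the 3 libraries of cells given vehicle, 6 of the 15 libraries of the series. The cells are an established mouse line of colon carcinoma, so every library comes from 1 line, and the labels give all 6 the genotype WT and no other allele. Per the study's methods, the inhibitor was given at 6 µM for 48 hours. The series' design text gives 3 biological replicates a group. A further 3 libraries of the same experiment, from cells given the type I inhibitor MS023 at the same dose and time, entered the fit and are used as a second compound. The series also holds 3 shControl and 3 shPrmt1 libraries, a knockdown of Prmt1 with its own controls. Of 34432 genes listed, 13014 were tested, those that reached 10 normalized counts in 3 or more of the 9 libraries, and the account below is of programmes other than the interferon response. Some of their members, many antigen-processing genes among them, are also on the interferon list. Others are known targets of MYC or E2F, for which no list was set apart here.

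Arginine methyltransferases place methyl groups on arginines of histones, RNA-binding proteins and signalling proteins, with S-adenosylmethionine as the donor. Type I enzymes, of which PRMT1 carries most of the activity in many cells, leave the asymmetric dimethyl mark. The mark sits on many splicing and ribonucleoprotein factors, on histone tails and on DNA repair proteins, and its inhibitors act on the enzymes and not on the mRNAs that encode them.

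The reads on genes ran from 48766758 to 73450043 in the vehicle libraries and from 40119305 to 77648780 in the GSK3368715 libraries. Prmt1 itself had 15593, 16107 and 15133 normalized counts in vehicle cells and 15844, 14566 and 16057 under GSK3368715, a log2 difference of -0.01 (limma adjusted p = 0.914). The labelled cell type was checked against markers. Epcam was at 0 in all 6 libraries and Cdh1 had at most 2.29 normalized counts, so these defining markers of epithelium were at or near 0, while Krt18 (1018, 933 and 872 counts in vehicle cells) and Krt20 were present and Col1a2, a collagen chain typical of mesenchymal cells, had 111309 to 122596 counts. Of 16 macrophage markers 4 could be tested and of 14 lymphocyte markers 2, with summed levels over all listed markers of 1519 to 1811 (vehicle) and 1427 to 1535 (GSK3368715) for macrophages and 31.4 to 53.1 and 23.6 to 37.4 for lymphocytes. Cd14 (1106 to 1514 normalized counts) and Cd68 (197 to 255) carried most of the macrophage sum, while Adgre1, Tyrobp, C1qa, Cd3e and Cd4 had no reads in any of the 6 libraries. In bulk RNA, fewer cells of a kind and less RNA per cell cannot be told apart.

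At a Benjamini-Hochberg adjusted p under 0.05 in limma, 1254 genes (9.64% of those tested) were called, 672 higher (5.16%) and 582 lower (4.47%) under GSK3368715. The differences were small in most of them. The absolute log2 fold change was under 0.5 in 808 of the called genes, with a median of 0.39, and reached 1 in 114, of which 86 were higher. All 3 GSK3368715 libraries lay above all 3 vehicle libraries in 1778 genes (13.7%) and below them in 1833 (14.1%). A hand-written interferon list of 209 tested genes held 115 of the genes called higher and 2 of those called lower, which leaves 557 higher and 580 lower outside it. The number of calls was 577 when only the 6 vehicle and GSK3368715 libraries were fitted. It also depended on single libraries, with 586 genes called without vehicle 3, 753 without GSK3368715 1 and 778 without GSK3368715 3. Besides these, 51 lists of other programmes were written, and 131 of the genes called higher and 103 of those called lower were members of at least 1 list. Of these, 106 and 103 are not on the interferon list. The plot of programme lists gives the share of each list that was called. The lists were chosen with earlier results of these data known. A share above that of all genes therefore describes a list and is no test of it.

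**Figure D1:**
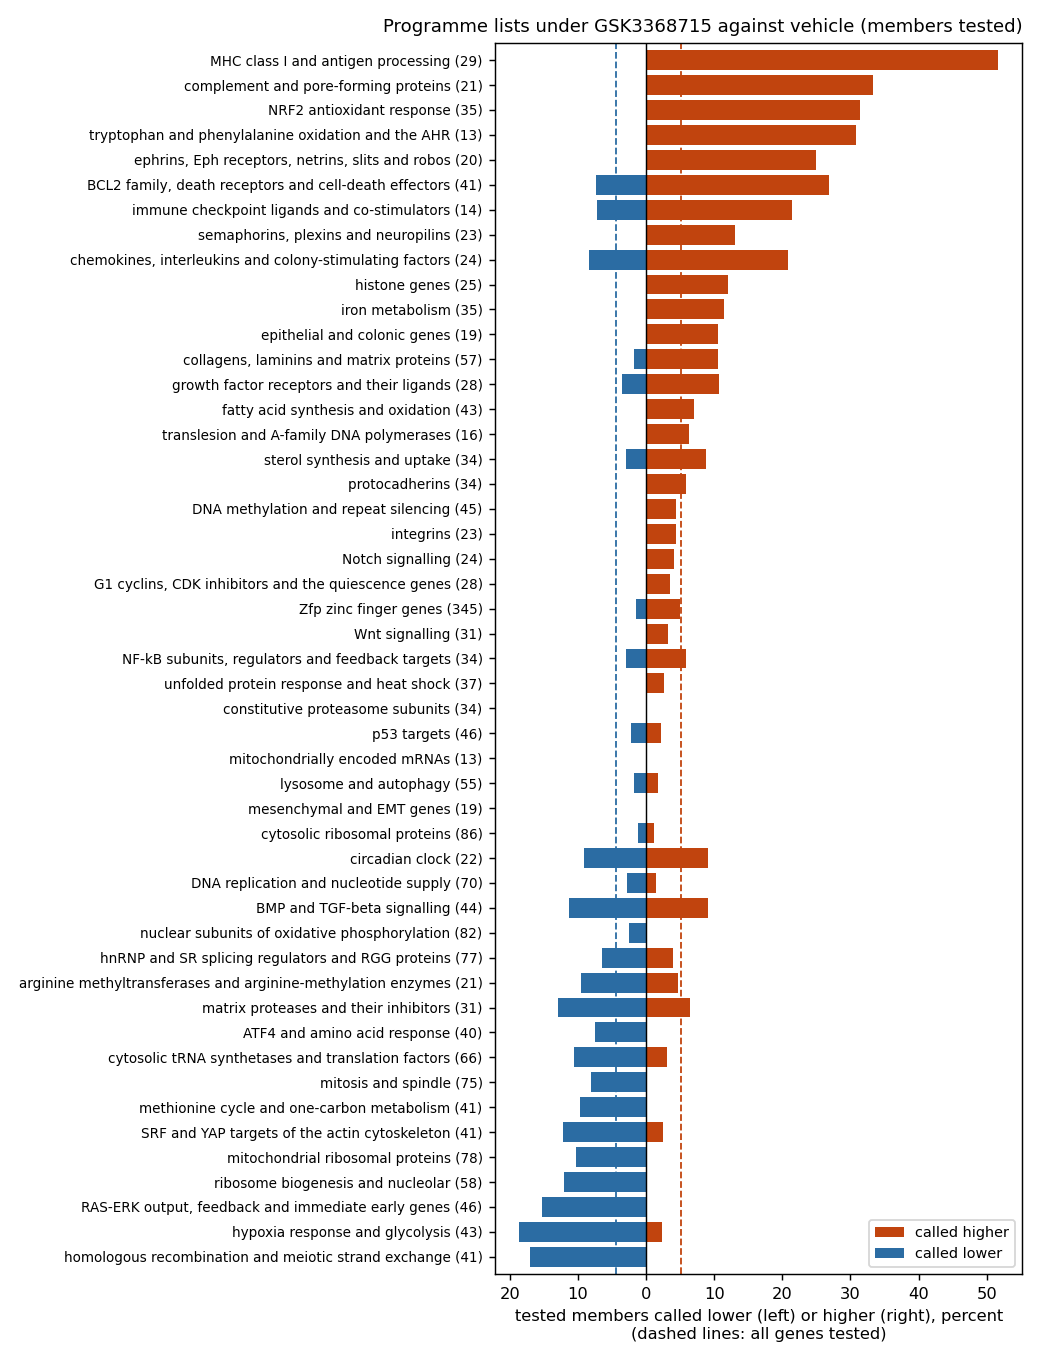
Share of the tested members of each programme list with 10 or more tested members that was called lower (blue bars, to the left) or higher (orange bars, to the right) under GSK3368715, in percent, with the number of members tested in brackets and dashed lines at the shares over all genes tested (4.47% lower, 5.16% higher). Antigen processing (51.7%), complement (33.3%) and NRF2 targets (31.4%) extend far to the right, and hypoxia (18.6%), recombination (17.1%) and RAS-ERK output (15.2%) to the left.

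The largest increases among genes outside the interferon list with at least 50 normalized counts on average in the higher group were in a semaphorin receptor, a DNA polymerase, a BMP ligand and a pore-forming protein. Plxnc1 (ENSMUSG00000074785, chromosome 10), the plexin that binds semaphorin 7A, had 14.7, 14.03 and 8.44 normalized counts in vehicle cells and 67.1, 63.4 and 112 under GSK3368715. The groups did not overlap, which the choice of the largest increases required of every gene among them. Vehicle 3 lay under 10 normalized counts, so Plxnc1 passed the filter only with libraries of treated cells. Its mean reached 50 only in treated cells as well, so its place among the largest increases carries no weight. No fold or p-value against vehicle is given for Plxnc1. Log2 changes are on the scale of log2(normalized count + 1), which understates changes of genes with few reads. Poln (ENSMUSG00000045102, chromosome 5), an A-family DNA polymerase that can copy past damaged bases, went from 131, 163 and 160.4 to 676, 629 and 494, with no overlap and a log2 change of 1.97 (SE 0.14, limma adjusted p = 0.000108). A 108 bp stretch of Poln exon also belongs to Haus3, which has the same orientation and fell by 0.54 (limma adjusted p = 0.00273). With MS023 the values were 46.2, 141 and 74.6 for Plxnc1 and 649, 615 and 764 for Poln, against the same vehicle libraries.

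For Plxnc1 and for Mnd1, the largest decrease on the recombination list, the promoter windows are shown. Each runs from 250 bases before to 50 after the start site in RefSeq (GRCm38.p6), 5′ to 3′ on the gene's strand, and capitals mark matches, on either strand, to GAAANNGAA (the interferon-stimulated element). Plxnc1 (chr10:94944796-94945095, minus strand) held the interferon-stimulated letters 118 bases upstream of the start. Mnd1 (chr3:84155737-84156036, minus strand) held none of the 10 motifs searched.
Plxnc1: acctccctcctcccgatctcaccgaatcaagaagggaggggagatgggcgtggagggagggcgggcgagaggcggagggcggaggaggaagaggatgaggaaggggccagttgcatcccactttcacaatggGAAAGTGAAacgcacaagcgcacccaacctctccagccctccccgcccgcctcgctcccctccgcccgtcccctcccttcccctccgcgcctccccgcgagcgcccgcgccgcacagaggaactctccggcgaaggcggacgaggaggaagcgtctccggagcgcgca
Mnd1: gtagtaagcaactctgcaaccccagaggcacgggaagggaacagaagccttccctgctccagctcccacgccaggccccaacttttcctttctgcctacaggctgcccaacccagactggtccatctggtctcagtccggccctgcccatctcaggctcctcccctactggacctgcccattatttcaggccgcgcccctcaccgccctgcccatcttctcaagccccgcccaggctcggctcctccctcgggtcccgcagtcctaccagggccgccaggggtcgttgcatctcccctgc

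Over gene sets, the letters GAAANNGAA were in 46.7% of 107 promoters of interferon-list genes called higher, in 6.92% of 520 promoters of the other genes called higher and in 8.26% of 593 promoters of genes called lower. They were in 7.27% of the promoters of all genes tested and in 8.56% of all 32851 promoters. So outside the interferon list the share was near that of the genes tested. The ETS letters CCGGAAG were in 11.7% of the promoters of genes called higher outside the list, in 20.7% of those called lower, in 17.6% of those tested and in 8.86% of all promoters. A match of letters is a description of the sequence and no evidence of binding.

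Bmp6, a secreted ligand of BMP receptors that also drives hepcidin, had 28.1, 12.4 and 21.7 normalized counts in vehicle cells and 54.1, 60.2 and 98.2 in treated cells, a log2 change of 1.75 (SE 0.31, limma adjusted p = 0.00701). Mpeg1, which encodes perforin-2, a pore-forming protein of phagocytic cells, went from 28.1, 15.7 and 18.1 to 67.8, 84.9 and 58.0, a log2 change of 1.74 (SE 0.25, limma adjusted p = 0.00294). Of the 16 macrophage markers 5 (Adgre1, Tyrobp, C1qa, C1qb and C1qc) had no reads in these libraries, while Cd14, Cd68 and Mrc1 (30.5 to 77.6 counts) were present. The summed level was 1519 to 1811 in vehicle and 1427 to 1535 in treated cells, and its part in the result was not tested. Tspoap1, a binding partner of presynaptic RIM proteins, had 115, 163 and 176 counts in vehicle cells and 763, 409 and 370.3 under the inhibitor, a log2 change of 1.71 (SE 0.24, limma adjusted p = 0.00294), with GSK3368715 1 the highest library. Slc8a3, a sodium-calcium exchanger, rose from 53.8, 29.7 and 59.1 to 114, 161 and 150.2, a log2 change of 1.602 (SE 0.26, limma adjusted p = 0.00515). Arhgap28, a GTPase-activating protein, went from 147, 94.1 and 125 to 322, 310.4 and 235, a log2 change of 1.25 (SE 0.19, limma adjusted p = 0.00394). In none of these 5 genes did the groups overlap. Tm6sf1, Gm20449, Gm7045, D130007C19Rik, BC023105, F830016B08Rik, Gm2619 and Gm10580 complete the 15 largest increases, with log2 fold changes from 1.31 to 1.61. Several of these have copies that could share reads. Gm2619 was 0.355% of the summed level of itself and its near-identical relatives Sp100, Gm7592 and Gm7609, and that sum changed by 0.41. Gm10580 has near-identical copies in the interferon zeta cluster and shares 100% of its exons with 1 of them, Gm13290, on the opposite strand. Gm20449 shares 55.7% of its exons with Vmn2r57. The interferon list was written by hand, so a gene outside it may still belong to the interferon response.

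**Figure D2:**
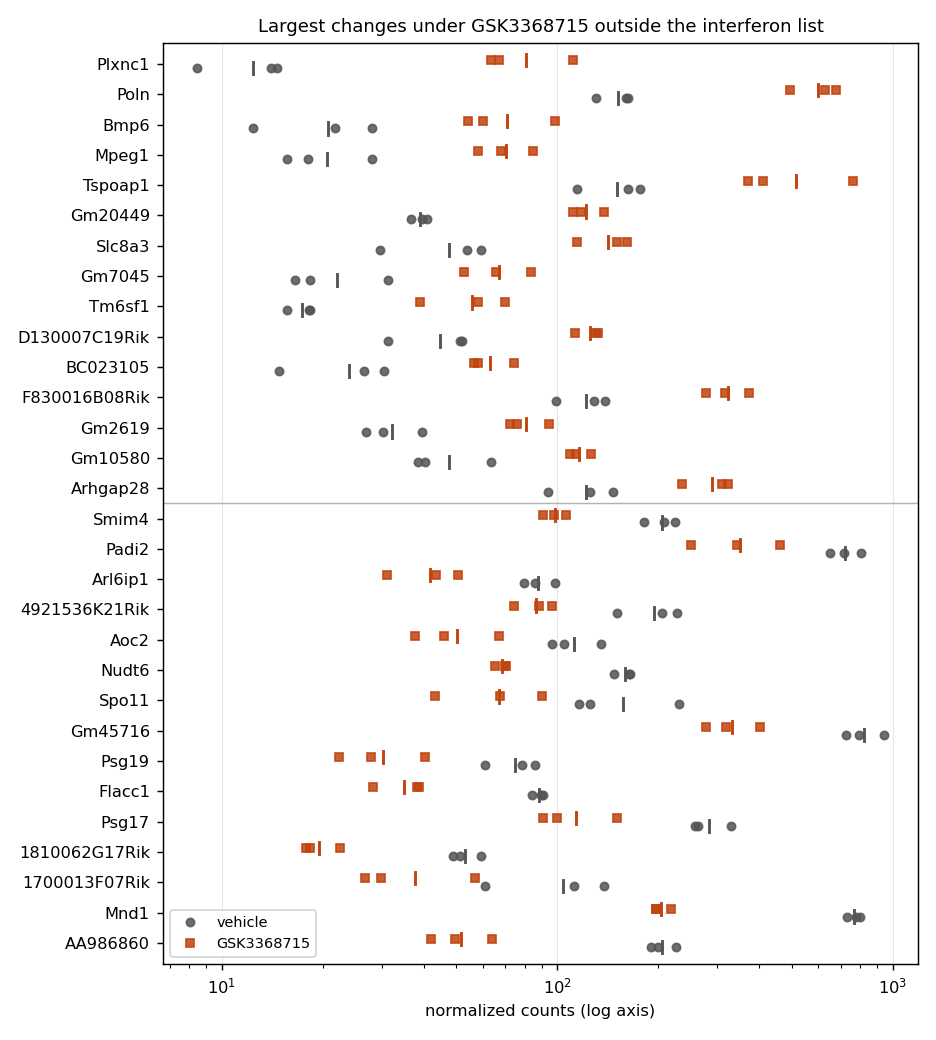
Normalized counts (log axis) of the 15 largest increases (upper block) and the 15 largest decreases (lower block) by log2 fold change outside the interferon list, with vehicle libraries as grey circles, GSK3368715 libraries as orange squares and the group means as vertical bars. The groups do not overlap in any row, which the choice of the genes required. In Mnd1 the treated libraries sit between 197 and 219 and the vehicle libraries between 729.6 and 798.

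Among the decreases, Mnd1 stood out by its level and its small spread. Its product pairs with HOP2 in the exchange of DNA strands, and is needed in meiosis. Mnd1 (ENSMUSG00000033752, chromosome 3) had 798, 775 and 729.6 normalized counts in vehicle cells and 197, 197 and 219 under GSK3368715, and the groups lay far apart relative to their spread, at 768 ± 34.8 (SD, n = 3) against 204 ± 12.7 (SD, n = 3). The log2 change of -1.91 (SE 0.11, limma adjusted p = 4.19e-05) kept its call in all 20 alternatives. AA986860, a gene of unknown function, went from 226, 191 and 199 to 41.9, 49.4 and 63.9, a log2 change of -1.98 (SE 0.19, limma adjusted p = 0.000507). Gm45716 had 725, 942 and 791 and 318, 277 and 402 counts, a log2 change of -1.31 (SE 0.15, limma adjusted p = 0.000899), and shares 12.8% of its exon length with Mmd, which changed by 0.05. Psg17 and Psg19, pregnancy-specific glycoproteins of the immunoglobulin superfamily, fell together. Psg17 had 263, 257 and 329 counts in vehicle cells and 150.2, 99.9 and 90.7 in treated cells, a log2 change of -1.33 (SE 0.19, limma adjusted p = 0.00294). Psg19 went from 61.1, 78.4 and 85.6 to 40.4, 27.9 and 22.3, a log2 change of -1.31 (SE 0.26, limma adjusted p = 0.012), and was not called without vehicle 3 (-1.21, limma adjusted p = 0.0534). Of the 5 tested members of the list of pregnancy-specific glycoproteins and CEACAMs these 2 were called (40%, against 4.47% of all genes tested). The list was chosen with earlier results of these data known and holds these 2 large decreases, so its share carries no weight. Psg16, Psg23 and Ceacam1 had log2 fold changes of 0.17, -0.05 and -0.03.

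Nudt6, a hydrolase whose transcript is antisense to Fgf2, fell from 165, 148 and 164 to 70.1, 69.8 and 65.4 normalized counts, a log2 change of -1.20 (SE 0.16, limma adjusted p = 0.00197). It shares 38.2% of its exons with Fgf2 on the opposite strand, and Fgf2 changed by -0.05. Whether the counting used strand is not given in the sources used here. Smim4, a small mitochondrial protein, fell from 225, 182 and 209 to 106, 97.8 and 90.7, a log2 change of -1.05 (SE 0.14, limma adjusted p = 0.00213). Arl6ip1, which shapes the endoplasmic reticulum, went from 85.5, 98.2 and 79.6 to 43.4, 31.2 and 50.6, a log2 change of -1.08 (SE 0.21, limma adjusted p = 0.012). In these 3 genes the groups were apart, which the choice of the largest decreases required. Flacc1, 4921536K21Rik and 1810062G17Rik, whose roles are not described here, had log2 fold changes of -1.32 (limma adjusted p = 0.0101), -1.15 (limma adjusted p = 0.00693) and -1.40 (limma adjusted p = 0.00827). The remaining large decreases were called less firmly. 1700013F07Rik (-1.44, limma adjusted p = 0.033) was not called in 8 of the 20 alternatives, among them without GSK3368715 1 (-1.23, limma adjusted p = 0.102), GSK3368715 3 (-1.31, limma adjusted p = 0.0913), vehicle 1 (-1.19, limma adjusted p = 0.0869) or vehicle 3 (-1.34, limma adjusted p = 0.109). Aoc2, an amine oxidase, changed by -1.17 (limma adjusted p = 0.0368) and was not called in 7, among them without GSK3368715 2 (-0.98, limma adjusted p = 0.108), GSK3368715 3 (-1.13, limma adjusted p = 0.0906), MS023 3 (-1.17, limma adjusted p = 0.0569), vehicle 2 (-1.21, limma adjusted p = 0.0569) or vehicle 3 (-1.03, limma adjusted p = 0.126).

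Homologous recombination repairs double-strand breaks by copying from an intact strand, and in meiosis SPO11 makes the breaks. Of 41 tested genes of recombination and meiotic strand exchange, 7 were called lower (17.1%, against 4.47% of all genes tested) and none higher, and the median of the list was -0.03, with 25 members below 0 and 16 above. Below Mnd1, the largest was Spo11, with 231, 125 and 116 normalized counts in vehicle cells and 89.9, 67.7 and 43.1 in treated cells, a log2 change of -1.21 (SE 0.30, limma adjusted p = 0.0323). The Spo11 call was lost in 8 of 20 alternatives, among them without GSK3368715 2 (-1.25, limma adjusted p = 0.068), GSK3368715 3 (-0.93, limma adjusted p = 0.0903), MS023 1 (-1.21, limma adjusted p = 0.0507), MS023 2 (-1.21, limma adjusted p = 0.0503) or vehicle 1 (-0.90, limma adjusted p = 0.0743). Rad50, which holds broken ends together in the MRE11 complex, fell from 4819, 5814 and 5698 to 3904, 4092 and 4011, a log2 change of -0.44 (SE 0.08, limma adjusted p = 0.0067). Brca2, a tumour suppressor needed for this repair, fell from 6096, 7034 and 7459 to 5365, 5392 and 4737, a log2 change of -0.41 (SE 0.08, limma adjusted p = 0.0104). For both the highest treated library lay below the lowest vehicle library. Rad51d, Blm and Mre11a were called lower as well, at -0.40, -0.29 and -0.26. The list had 3 calls without GSK3368715 3. Poln was the only 1 of 16 tested translesion and A-family polymerases that was called (6.25%, against 5.16% of all genes tested called higher).

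The hypoxia programme, which HIF proteins drive, covers glycolytic enzymes, glucose transport, pH control and mitophagy. Of 43 tested entries of the hypoxia and glycolysis list (42 genes, since Aldoa has 2 identifiers), 37 had a log2 fold change below 0, with a median of -0.23. The call was made for 8 lower (18.6%, against 4.47% of all genes tested) and 1 higher (2.33%, against 5.16%). In 21 entries all treated libraries lay below all vehicle libraries (14.1% of all genes tested did). The list's median difference from the vehicle mean was -0.01, 0.06 and -0.06 in the vehicle libraries and -0.30, -0.25 and -0.12 in the GSK3368715 libraries. Pdk1, the kinase that shuts pyruvate out of the mitochondria, had 9342, 10864 and 9119.6 normalized counts in vehicle cells and 6329, 6833 and 6747 under GSK3368715, a log2 change of -0.56 (SE 0.07, limma adjusted p = 0.00154). Higd1a, an inner-membrane protein of mitochondria, went from 4778, 5147 and 4449 to 3394, 3221 and 3661, a log2 change of -0.48 (SE 0.08, limma adjusted p = 0.00487). Car12, a surface carbonic anhydrase, went from 994, 1056 and 990.1 to 682, 710 and 782, a log2 change of -0.48 (SE 0.10, limma adjusted p = 0.0124). The groups were apart in each of the 3 genes.

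Bnip3, a mitophagy receptor, fell from 12704, 15593 and 12384 to 8302, 10172 and 10289.6 normalized counts, a log2 change of -0.50 (SE 0.12, limma adjusted p = 0.0238), and was not called without GSK3368715 1 (-0.40, limma adjusted p = 0.0788) or vehicle 2 (-0.39, limma adjusted p = 0.0514). Slc2a1 (the glucose transporter GLUT1), Pfkp (phosphofructokinase), Hif1a and Gapdh were called lower at -0.37, -0.36, -0.25 and -0.22. Pfkfb4, which raises the activator of phosphofructokinase, was the 1 called higher, at 0.34, and that call was lost in 11 of the 20 alternatives. Car9, the other hypoxic carbonic anhydrase, had 1689, 1254 and 1485 counts in vehicle cells and 869, 1115 and 1178 in treated cells, at -0.49 (limma adjusted p = 0.157). The number of members called lower was 3 without GSK3368715 1, 5 without GSK3368715 2 and 15 by DESeq2 on recovered reads. In the knockdown, with controls of its own, 28 of 41 tested entries were called lower and none higher, beside 7.17% of all genes lower and 7.5% higher there. Pdk1 changed by -0.87 (limma adjusted p = 0.000541), Bnip3 by -1.27 (limma adjusted p = 9.96e-05) and Car9 by -3.46 in shPrmt1 cells. Under MS023 6 entries were lower and 2 higher, beside 14.1% and 13.7% of all genes.

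**Figure D3:**
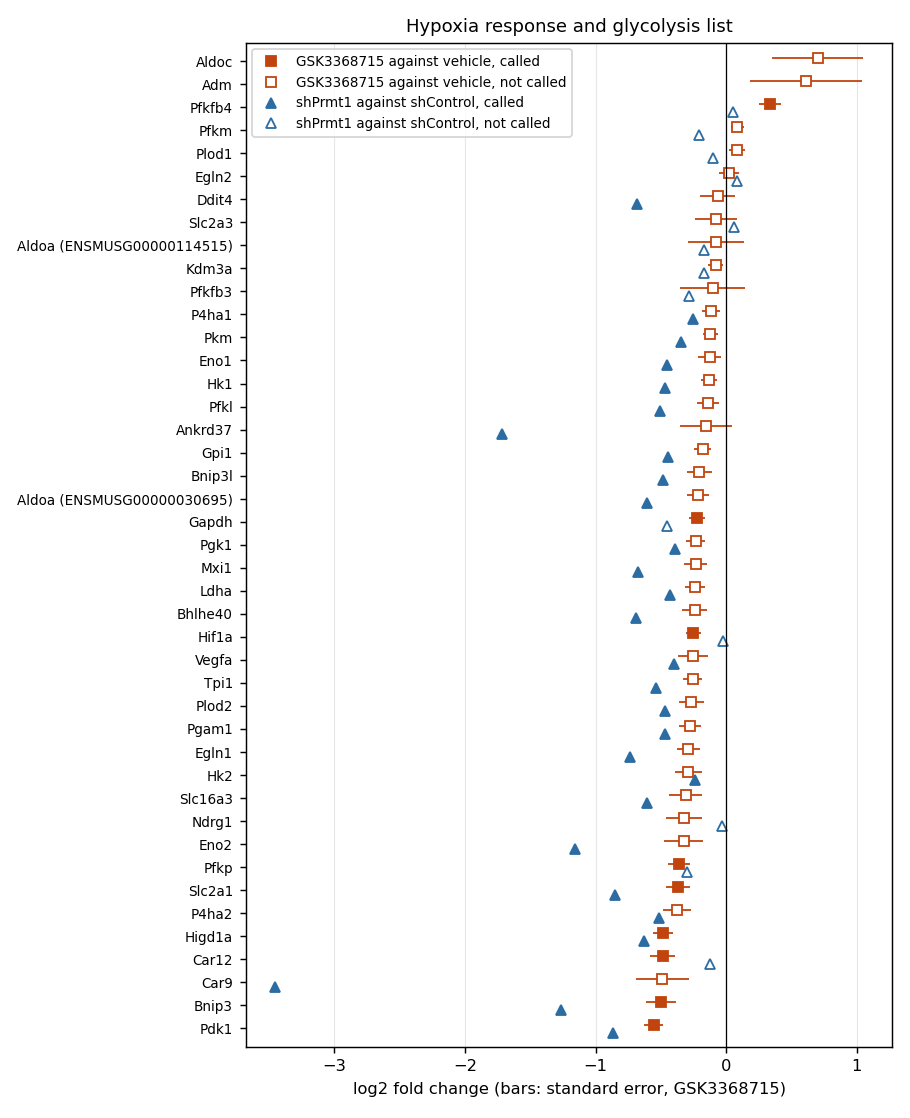
Log2 fold change (x axis) of every tested member of the hypoxia and glycolysis list under GSK3368715 (squares with bars of 1 standard error) and, where tested, in shPrmt1 against shControl cells (triangles), with filled marks for members called. Of the 43 squares 37 lie left of 0, the lowest at -0.56 (Pdk1), and Aldoc and Adm lie farthest to the right without a call. The triangles of Car9, Ankrd37, Bnip3 and Eno2 lie farthest to the left.

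NRF2 is the transcription factor that electrophiles and oxidants release from KEAP1, and its targets include glutathione transferases, NADPH-making enzymes and ferritin. Of 35 tested NRF2 targets and regulators 11 were called higher (31.4%, against 5.16% of all genes) and none lower, with a median of 0.15. Gsta1, a glutathione transferase, had 45.2, 55.3 and 62.7 normalized counts in vehicle cells and 96.8, 115 and 128 under GSK3368715, a log2 change of 1.05 (SE 0.16, limma adjusted p = 0.00424). Its near-identical copies carried little of the signal, since Gsta1 was 96.6% of the summed level and the sum changed by 1.06. Gsta4 went from 657, 596 and 628 to 1044, 1075 and 1037, a log2 change of 0.75 (SE 0.06, limma adjusted p = 0.00024). Gstm1 rose from 2350.1, 2086 and 2125 to 3364, 3433 and 3484, a log2 change of 0.65 (SE 0.06, limma adjusted p = 0.000474). In all 3 transferases the groups were apart. Nqo1, a quinone reductase, had 114, 131 and 121 and 168, 201 and 164 counts, at 0.54 (limma adjusted p = 0.0263), a call that was lost without GSK3368715 1 (0.57, limma adjusted p = 0.0536), GSK3368715 2 (0.45, limma adjusted p = 0.0774), vehicle 1 (0.49, limma adjusted p = 0.0629) or vehicle 3 (0.53, limma adjusted p = 0.0785). Osgin1, Pgd, Gpx4, Gstp1 and G6pdx were called higher too, from 0.20 in G6pdx to 0.63 in Osgin1. The list had 5 calls without vehicle 3 and 7 without GSK3368715 2.

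Both ferritin chains are among the 11 NRF2 genes called higher. Ftl1, the ferritin light chain, had 131983, 124889 and 126539 normalized counts in vehicle cells and 159926, 171546 and 177478 in treated cells, a log2 change of 0.41 (SE 0.07, limma adjusted p = 0.00693). Fth1, the heavy chain, went from 108497, 104284 and 101321 to 124259, 133494 and 132258, a log2 change of 0.31 (SE 0.06, limma adjusted p = 0.00827). The groups were apart for both chains, and the light chain's own share of the summed level with its copies was 99.3%. Of 35 tested iron genes 4 were called higher (11.4%, against 5.16% of all genes tested), with a median of 0.04. The 4 are these chains, Bmp6, which is also on the BMP list, and Iscu, a scaffold of iron-sulfur clusters (0.27, limma adjusted p = 0.0141, lost without vehicle 3 (0.27, limma adjusted p = 0.0512)). Of 34 sterol genes 3 were called higher (8.82%) and 1 lower, and without vehicle 2 the counts were 7 and 0. Mylip, the ligase that removes the LDL receptor, had 1189, 1108 and 1095 and 1549, 1636 and 1426 counts, a log2 change of 0.44 (SE 0.07, limma adjusted p = 0.00424). Insig1, which holds the sterol sensor in the endoplasmic reticulum, had 7270.4, 7114 and 7179 and 9311, 10596 and 9107, a log2 change of 0.42 (SE 0.06, limma adjusted p = 0.00266). Few of the listed lysosome and autophagy genes were called. Ctsa, the protective protein of lysosomal galactosidase, rose at 0.40 (limma adjusted p = 0.0139), which was lost without vehicle 3 (0.37, limma adjusted p = 0.0571), and Glb1, that galactosidase, fell from 3193, 2969 and 2947 to 2241, 2431 and 2274, a log2 change of -0.39 (SE 0.07, limma adjusted p = 0.00642). They were the 2 called of 55 listed genes tested (1.82% in each direction, against 5.16% of all genes called higher and 4.47% lower). The list is not complete, and Arsb, a lysosomal enzyme not on it, is given under the other observations.

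Of 41 tested members of the BCL2 family, death receptors and effectors, 11 were called higher (26.8%, against 5.16% of all genes tested), 3 lower (7.32%, against 4.47%) and 27 neither, with a median of 0.14. Bmf, a BH3-only protein that binds BCL2 when cells detach, had 239.5, 175 and 123 normalized counts in vehicle cells and 351, 369.5 and 412 under GSK3368715, a log2 change of 1.12 (SE 0.20, limma adjusted p = 0.0082). Casp12, an inflammatory-group caspase of the endoplasmic reticulum, went from 297, 257 and 289 to 559, 604 and 476, a log2 change of 0.95 (SE 0.11, limma adjusted p = 0.000866). Casp1, which activates interleukin-1β and gasdermin D, rose from 884, 754 and 749 to 1152, 1316 and 1138, a log2 change of 0.60 (SE 0.08, limma adjusted p = 0.00285). Zbp1, a sensor of Z-form nucleic acids upstream of necroptosis, had 1954, 983 and 1404 and 2695, 3476 and 2603, a log2 change of 1.06 (SE 0.20, limma adjusted p = 0.0104). All 4 were apart from vehicle. Gsdmd, Tnfrsf1b, Bcl2l11, Bid and Diablo were called higher at 0.25 to 0.40. Cflar, which restrains caspase-8, Casp8 itself and Tnfrsf12a were called lower at -0.27, -0.26 and -0.27. Casp1 and Zbp1 are also on the interferon list, and 9 of the 11 are not. The number called higher was 6 without vehicle 3 and 7 without GSK3368715 1, GSK3368715 2, GSK3368715 3 or MS023 3, and the number called lower was 1 without GSK3368715 3 or vehicle 3.

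Of 29 tested genes of MHC class I and antigen processing 15 were called higher (51.7%, against 5.16% of all genes tested) and none lower, with a median of 0.39, and 13 of those 15 are on the interferon list. Erap1, which trims peptides, and H2-Q1 are the 2 that are not, at 0.46 and 0.51. Psmb8, an immunoproteasome subunit, had 875, 711 and 671 normalized counts in vehicle cells and 1159, 1275 and 1115 in treated cells, a log2 change of 0.66 (SE 0.10, limma adjusted p = 0.00386). Tapbp, which bridges class I molecules to the peptide transporter, had 15232, 11311 and 13197 and 19208, 21360 and 19319.5, a log2 change of 0.60 (SE 0.10, limma adjusted p = 0.00492). None of the 34 constitutive proteasome subunits was called in limma (5 had an unadjusted p under 0.05, edgeR called 0 and DESeq2 1), and their median was -0.03. Without vehicle 3, 9 antigen-processing genes were called. Of 21 complement and pore-forming genes 7 were called higher (33.3%) and none lower, with Mpeg1 the largest. Serping1, the C1 inhibitor, had 40.3, 52.0 and 41.0 and 82.3, 79.5 and 68.4 counts, at 0.78 (limma adjusted p = 0.017), and was not called without GSK3368715 1 (0.73, limma adjusted p = 0.0581), GSK3368715 2 (0.75, limma adjusted p = 0.0504) or vehicle 3 (0.73, limma adjusted p = 0.062). C1s1, C1s2, C1ra, Clu and Gsdmd lay between 0.40 and 0.61, and Serping1, C1s1 and C1ra are on the interferon list. The complement list had 2 calls without vehicle 3 and 3 without GSK3368715 1 or GSK3368715 2.

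Among secreted signals, Tnfsf10, the death ligand TRAIL, had 56.2, 58.6 and 73.6 normalized counts in vehicle cells and 160.1, 218 and 152 under GSK3368715, a log2 change of 1.47 (SE 0.18, limma adjusted p = 0.0014). Cxcl10, a chemokine for CXCR3-bearing T cells, had 1982, 1765 and 1807 and 4022, 3788 and 3962, a log2 change of 1.08 (SE 0.07, limma adjusted p = 0.000108). The chemokine list had 5 of 24 members higher (20.8%, against 5.16% of all genes tested) and 2 lower (8.33%, against 4.47%). Between 2 and 6 were higher over the alternatives, and 0 were lower without GSK3368715 1 or GSK3368715 2. Tnfsf10, Cxcl10, Cd274 and Il4i1 are also on the interferon list. Of 14 checkpoint ligands and co-stimulators 3 were called higher (21.4%, against 5.16% of all genes tested) and 1 lower (7.14%, against 4.47%). Without vehicle 1 the counts were 5 and 2. Entpd1, the ectonucleotidase CD39, is among the 3 higher with few reads. It had 8.92 to 19.3 normalized counts under GSK3368715 and 0.825 to 1.22 in vehicle cells. Entpd1 passed the filter on low values only through the libraries of treated cells, so no fold is given and its call carries no weight. Cd274, which encodes PD-L1, went from 721, 521 and 642 to 938, 993 and 910.1, a log2 change of 0.60 (SE 0.11, limma adjusted p = 0.007). Lgals9, the lectin galectin-9, went from 9073, 7237 and 8172 to 10399, 11397 and 11033, a log2 change of 0.43 (SE 0.08, limma adjusted p = 0.00973). Pvr, the ligand of TIGIT and CD226, fell from 9781, 8113 and 9399 to 6212, 6980 and 6276, a log2 change of -0.48 (SE 0.09, limma adjusted p = 0.00776). Ptgs2, the inducible cyclooxygenase that makes prostaglandins, fell from 16434, 17288 and 17389 to 11777, 12824 and 12440, a log2 change of -0.46 (SE 0.05, limma adjusted p = 0.00103). In all the genes of this paragraph the groups were apart.

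Ahr, the aryl hydrocarbon receptor, rose from 3558, 4044 and 3886 to 5488, 5490.1 and 5381 normalized counts, a log2 change of 0.51 (SE 0.06, limma adjusted p = 0.000902). Il4i1, an amino acid oxidase whose products activate that receptor, had 12.2, 17.3 and 18.1 and 66.3, 54.8 and 65.4 counts, a log2 change of 1.92 (SE 0.24, limma adjusted p = 0.0013). Il4i1 shares 83.9% of its exons with Tbc1d17 on the opposite strand, which had 1463 counts in vehicle cells and changed by 0.19, so reads of the 2 genes may not have been told apart. Of 13 genes of tryptophan and phenylalanine oxidation and the receptor 4 were called higher (30.8%, against 5.16% of all genes tested) and none lower. That number was 2 without GSK3368715 1, GSK3368715 2 or vehicle 3.

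Of 44 BMP and TGF-β genes 4 were called higher (9.09%, against 5.16% of all genes tested) and 5 lower (11.4%, against 4.47%), with a median of 0.01. Besides Bmp6, Id3, a BMP target that blocks differentiation factors, had 889.7, 1108 and 913 normalized counts in vehicle cells and 1424, 1189 and 1295 in treated cells, at 0.43 (limma adjusted p = 0.033). Fst, the secreted activin and BMP antagonist follistatin, had 567, 975 and 769 and 452, 479 and 384, at -0.78 (limma adjusted p = 0.0189). The Fst call was lost without GSK3368715 3 (-0.69, limma adjusted p = 0.0633) or vehicle 3 (-0.77, limma adjusted p = 0.0657), and the Id3 call in 8 of 20 alternatives, among them without GSK3368715 1 (0.36, limma adjusted p = 0.105), GSK3368715 3 (0.43, limma adjusted p = 0.0771), MS023 3 (0.43, limma adjusted p = 0.0541), vehicle 1 (0.37, limma adjusted p = 0.0788) or vehicle 3 (0.39, limma adjusted p = 0.111). The list had 2 higher calls without GSK3368715 1, GSK3368715 3 or vehicle 3, and none lower without vehicle 3. Of 23 semaphorins, plexins and neuropilins 3 were called higher (13.04%, against 5.16% of all genes tested) and none lower. They were Plxnc1, Sema4a (1.20) and Sema3b (1.06). Plxnc1 passed the filter only with libraries of treated cells, so its call carries no weight. Without GSK3368715 2, MS023 2, vehicle 2 or vehicle 3 the number called higher was 1, Plxnc1. Of 20 ephrins, Eph receptors, netrins, slits and robos 5 were called higher (25%, against 5.16% of all genes tested) and none lower, led by Efnb3, an ephrin ligand. It had 62.3, 47.0 and 73.6 counts in vehicle cells and 185, 85.9 and 117 in treated cells, at 1.03 (limma adjusted p = 0.0359). The Efnb3 call was lost in 11 of 20 alternatives, among them without GSK3368715 1, GSK3368715 3 or any single MS023 or vehicle library. That list had 0 calls without GSK3368715 3 or vehicle 3.

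Of 40 tested ATF4 and amino acid response genes 37 had a log2 fold change below 0. The median was -0.16 (0.0004 over all genes tested), and 3 were called lower (7.5%, against 4.47%). Slc1a5, the glutamine transporter ASCT2, had 18679, 16846 and 17847 normalized counts in vehicle cells and 12437, 13631 and 12794 under GSK3368715, a log2 change of -0.46 (SE 0.05, limma adjusted p = 0.00103). The per-library medians of this list overlapped between the groups, with 0.15, -0.18 and 0.03 in vehicle and -0.30, -0.05 and -0.18 in GSK3368715, and the number called lower was 12 without vehicle 2 and 1 without vehicle 1, vehicle 3, GSK3368715 1 or GSK3368715 3. In the methionine cycle and folate list 4 of 41 were called lower (9.76%, against 4.47% of all genes tested) and none higher. Slc19a1, the reduced folate carrier, fell from 1392, 1298 and 1368 to 1039.7, 1063 and 989, a log2 change of -0.39 (SE 0.06, limma adjusted p = 0.00528). Mthfd1l, a mitochondrial enzyme that releases formate, fell from 11786, 11323 and 11161 to 8210.5, 9018 and 9429, a log2 change of -0.36 (SE 0.06, limma adjusted p = 0.00566). In both the groups were apart. Mtrr and Azin1 were called lower as well, at -0.38 and -0.30, and the list had 2 calls without GSK3368715 1, GSK3368715 3 or vehicle 3.

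Of 58 tested ribosome biogenesis and nucleolar genes 7 were called lower (12.1%, against 4.47% of all genes tested) and none higher, and 49 lay below 0, with a median of -0.09. Rrs1, an assembly factor of the large subunit, had 5493, 5509 and 5422 normalized counts in vehicle cells and 4069, 3732 and 4229 in treated cells, a log2 change of -0.45 (SE 0.06, limma adjusted p = 0.00179). Imp3, of the small-subunit processome, had 1738, 1505 and 1549.7 and 1198, 1254 and 1196, a log2 change of -0.39 (SE 0.07, limma adjusted p = 0.00693). Nop56, a core protein of box C/D particles, had 23429, 22643 and 24194 and 19615, 16744 and 18035, a log2 change of -0.37 (SE 0.07, limma adjusted p = 0.00776). The groups were apart in all 3. The list had 3 calls without GSK3368715 2 or vehicle 3 and 4 without GSK3368715 3, MS023 3 or vehicle 1. Of 66 cytosolic tRNA synthetases and translation factors 7 were lower (10.6%, against 4.47% of all genes tested) and 2 higher (3.03%, against 5.16%). There were 4 lower without GSK3368715 1 and 0 higher without GSK3368715 1, GSK3368715 3 or vehicle 3. Vars, the valyl-tRNA synthetase, fell from 26002, 24345 and 26069.7 to 18904, 18481 and 19920.3, a log2 change of -0.42 (SE 0.06, limma adjusted p = 0.00221). Eif4g3, a scaffold of the cap-binding complex, fell from 4495, 4749 and 4826 to 3587, 3315 and 3609, a log2 change of -0.42 (SE 0.06, limma adjusted p = 0.00344). Eif2b3, a subunit of the exchange factor of eIF2, fell from 1727, 1737 and 1726 to 1343, 1303 and 1402, a log2 change of -0.36 (SE 0.07, limma adjusted p = 0.00907).

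Of 78 tested mitochondrial ribosomal proteins 8 were called lower (10.3%, against 4.47% of all genes tested) and none higher, and the number lay between 6 and 9 over all alternatives. Mrpl55 had 459.5, 423 and 370.2 normalized counts in vehicle cells and 279.8, 288 and 283 under GSK3368715, a log2 change of -0.55 (SE 0.10, limma adjusted p = 0.0101). Mrpl57 had 989, 878 and 925 and 662, 701 and 759.9, a log2 change of -0.40 (SE 0.08, limma adjusted p = 0.0124). Mrpl33 and Mrps10 changed by -0.37 (limma adjusted p = 0.0123) and -0.34 (limma adjusted p = 0.00432). In each of these 4 the groups were apart. The list's median was -0.04, with 50 of 78 members below 0. All treated libraries lay below all vehicle libraries for 18 of the 78 and above them for 5, beside 14.1% and 13.7% of all genes. Of 82 nuclear subunits of oxidative phosphorylation 2 were called lower (2.44%, against 4.47% of all genes tested), Cox8a and Ndufs1. The Ndufs1 call was lost in 9 of 20 alternatives, among them without any single GSK3368715 library, MS023 3, vehicle 1 or vehicle 3. Cox8a, a subunit of cytochrome oxidase, had 9740.3, 8787 and 8843 and 6994, 7108 and 7703 counts, at -0.33 (limma adjusted p = 0.01). None of the 13 mitochondrially encoded mRNAs was called by limma, edgeR or DESeq2 or had an unadjusted p under 0.05, and their median followed single libraries, at 0.35, -0.66 and 0.30 in vehicle and 0.18, -0.14 and -1.10 in GSK3368715. Of 86 cytosolic ribosomal proteins Rpl5 was called higher and Rps28 lower (1.16% each, against 5.16% and 4.47% of all genes tested). The Rps28 call was lost without GSK3368715 1 (-0.28, limma adjusted p = 0.0691) or GSK3368715 2 (-0.31, limma adjusted p = 0.0591). Rpl5 had 6111, 6365 and 5929.8 and 11237, 11249 and 10704 counts, at 0.85 (limma adjusted p = 0.000108). Its value is uncertain, since it was 8.71% of the summed level with its copies, mainly Gm15500, and that sum changed by 0.01.

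Of 46 tested RAS-ERK output, feedback and immediate early genes 7 were called lower (15.2%, against 4.47% of all genes tested) and none higher, with a median of -0.07. Hbegf, a ligand of the EGF receptor, had 2376, 2852 and 2424 normalized counts in vehicle cells and 1674, 1668 and 1993 in treated cells, a log2 change of -0.52 (SE 0.09, limma adjusted p = 0.00672). Maff, a small MAF factor, had 2377, 2348 and 2226 and 1594, 1908 and 1699.8, a log2 change of -0.42 (SE 0.07, limma adjusted p = 0.007). Ier3, Fosb, Nr4a1, Lif and Ereg were called lower at -0.50 to -0.30. The number was 2 without GSK3368715 1 or vehicle 3, 3 without GSK3368715 2 or MS023 2 and 4 without vehicle 2. Of 41 SRF and YAP targets of the actin cytoskeleton 5 were lower (12.2%, against 4.47% of all genes tested) and 1 higher (2.44%, against 5.16%). Without GSK3368715 1, GSK3368715 3 or vehicle 3 the number lower was 2. Ccn1, a matricellular target of YAP, fell from 9415, 9595 and 8802 to 7255, 7788 and 7192, a log2 change of -0.32 (SE 0.05, limma adjusted p = 0.00528). Thbs1, thrombospondin 1, rose from 5492, 6371 and 6199 to 8621, 8950 and 8750.4, a log2 change of 0.55 (SE 0.06, limma adjusted p = 0.00103).

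Of 57 matrix genes 6 were called higher (10.53%, against 5.16% of all genes tested) and 1 lower, and between 4 and 11 were higher over the alternatives. Emilin1, an elastic-fibre glycoprotein, had 654, 680.1 and 619 normalized counts in vehicle cells and 996, 944 and 931 under GSK3368715, a log2 change of 0.56 (SE 0.07, limma adjusted p = 0.00185). Col6a1, a collagen VI chain, had 871, 912 and 851 and 1170.1, 1168 and 1273, a log2 change of 0.45 (SE 0.08, limma adjusted p = 0.00633). Itga3, the laminin-binding integrin chain, had 11026, 11256 and 11428 and 15322, 15331 and 15444, a log2 change of 0.45 (SE 0.04, limma adjusted p = 0.000505). It was the 1 called of 23 integrins (4.35%), and 3 were called without vehicle 1. Pdgfrb, the PDGF receptor β, rose from 2134, 1609 and 1885 to 2866, 3175 and 2711, a log2 change of 0.64 (SE 0.11, limma adjusted p = 0.00563). Among 9 fibroblast markers, of which 7 were tested, it was the 1 called, and their summed level was 143240.1 to 145167 in vehicle and 133232 to 142057 in treated cells. Flt1, a VEGF receptor, fell from 243, 285 and 241 to 146, 157 and 139.8, a log2 change of -0.79 (SE 0.12, limma adjusted p = 0.00432). Of 31 matrix proteases and inhibitors 4 were lower (12.9%, against 4.47% of all genes) and 2 higher (6.45%), and without GSK3368715 1 the counts were 2 and 0. Adamts14, a procollagen peptidase, fell from 590.3, 579 and 619 to 348, 349 and 421, a log2 change of -0.68 (SE 0.10, limma adjusted p = 0.00294). Plaur, the urokinase receptor, fell from 2936, 3028 and 2782 to 2205, 2075 and 2437, a log2 change of -0.38 (SE 0.08, limma adjusted p = 0.0129). None of 19 mesenchymal genes was called in limma (3 had an unadjusted p under 0.05, edgeR called 0 and DESeq2 2).

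Of 21 genes of arginine methylation and its removal 1 was called higher (4.76%, against 5.16% of all genes tested) and 2 lower (9.52%, against 4.47%). Padi2, a deiminase that turns arginine into citrulline, had 803, 648 and 715 normalized counts in vehicle cells and 459.7, 250.3 and 344 in treated cells, a log2 change of -1.08 (SE 0.23, limma adjusted p = 0.0169). It was not called without GSK3368715 2 (-0.85, limma adjusted p = 0.0515) or vehicle 3 (-1.08, limma adjusted p = 0.0561). Jmjd6 and Ddah1, which hydrolyses free asymmetric dimethylarginine, changed by -0.34 (limma adjusted p = 0.0264) and 0.28 (limma adjusted p = 0.0427), and both calls were lost in at least 5 alternatives. Among 77 hnRNP, SR and RGG proteins, the class that carries many of the methyl marks, 3 were higher (3.90%, against 5.16% of all genes tested) and 5 lower (6.49%, against 4.47%). Chtop, an arginine-rich mRNA export factor and PRMT1 substrate, rose from 10629, 10145 and 9930 to 12437, 12917 and 12254, a log2 change of 0.29 (SE 0.05, limma adjusted p = 0.00528). The 5 lower calls of that list were 0 without GSK3368715 1 or vehicle 3, and the 3 higher calls were 1 without GSK3368715 1, GSK3368715 2 or vehicle 3. Of 75 mitosis genes 6 were lower (8%) and none higher. Spc24, of the NDC80 kinetochore complex, fell from 1871, 1628 and 1854 to 1368, 1385 and 1304, a log2 change of -0.40 (SE 0.07, limma adjusted p = 0.00757). Between 2 and 7 were called over the alternatives. Of 45 genes of DNA methylation and repeat silencing 2 were higher, both also on the interferon list, among them Daxx, a chaperone of the replacement histone H3, from 3441, 3236 and 3399.7 to 4712, 4122 and 4180.4, a log2 change of 0.37 (SE 0.06, limma adjusted p = 0.00693). Of 345 Zfp genes 17 were higher (4.93%, against 5.16% of all genes tested) and 5 lower (1.45%, against 4.47%). Over the alternatives between 4 and 30 were higher and between 1 and 6 lower. Zfp125 rose at 0.52 (limma adjusted p = 0.00574).

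The remaining lists held few calls, and their shares are to be read against 5.16% of all genes tested called higher and 4.47% called lower. Of 25 histone genes 3 were higher (12%), among them H2bc4, a core histone of the H2B family. H2bc4 had 303, 293 and 258 normalized counts in vehicle cells and 492, 451 and 486 in treated cells, a log2 change of 0.74 (SE 0.11, limma adjusted p = 0.00281). The histone count was 1 without GSK3368715 2 or vehicle 3, and the list's median log2 level per library, relative to the vehicle mean, was 0.21, 0.67 and -0.03 in GSK3368715 1 to 3. Of 34 genes of NF-kB subunits and feedback 2 were higher (5.88%) and 1, Ptgs2, was lower (2.94%). Nfkbie, an inhibitor of NF-kB, had 387, 358 and 394 and 506, 555 and 552, a log2 change of 0.50 (SE 0.09, limma adjusted p = 0.007). Of 24 Notch genes Notch1, a receptor, was called, with 994, 1444 and 1235 and 1942, 1724 and 2149 counts (0.67, limma adjusted p = 0.015), and the call was lost without GSK3368715 3 (0.60, limma adjusted p = 0.0522). Of 46 p53 targets 1 was higher and 1 lower (2.17% each), and of 70 replication genes 1 and 2 (1.43% and 2.86%). Of 28 cyclin and quiescence genes 1 was higher (3.57%) and 0 lower, and of 22 clock genes 2 and 2 (9.09% each). Of 43 fatty acid genes 3 were higher (6.98%) and none lower, and 0 were higher without vehicle 3. Of 37 genes of the unfolded protein response and heat shock 1 was higher (2.70%), and 8 without vehicle 2. Without vehicle 3 no clock gene was called in either direction, and neither was any without GSK3368715 1, while the 2 lower clock calls were also lost without GSK3368715 2, GSK3368715 3 or MS023 2. The 2 lower replication calls were lost without GSK3368715 1, GSK3368715 3, vehicle 1 or vehicle 3, and without vehicle 2 there were 5 higher replication genes. Without vehicle 1 there were 5 higher NF-kB genes and 3 higher p53 targets.

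**Figure D4:**
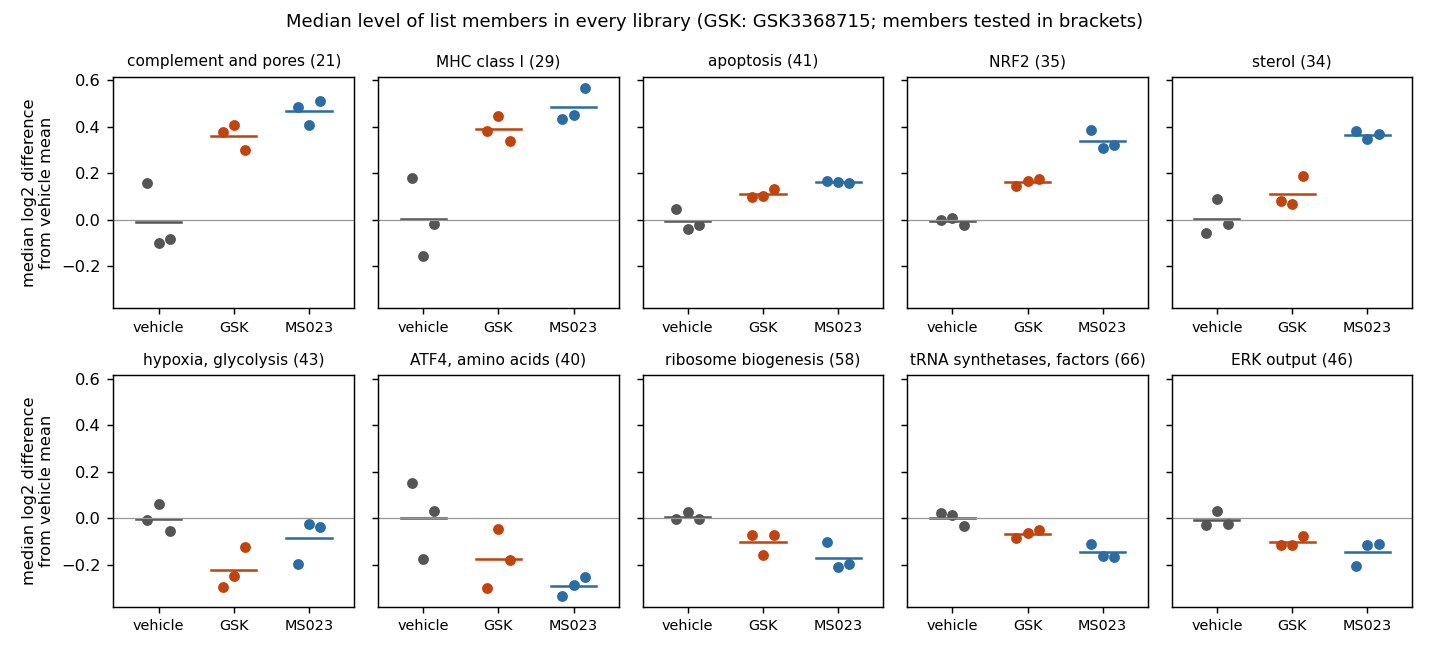
Median over the tested members of 10 lists of the log2 difference from the vehicle mean, for each library (points) with the mean of the 3 libraries as a bar, under vehicle, GSK3368715 and MS023. The GSK3368715 points lie above all vehicle points for complement, MHC class I, apoptosis and NRF2, below all of them for hypoxia, ribosome biogenesis, tRNA synthetases and ERK output, and overlap them for sterol and ATF4 genes, while the MS023 points overlap vehicle for hypoxia and not for the other 9 lists.

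GSK3368715 and MS023, both type I inhibitors, were compared at the same dose and time, as 1 pair of compounds in the same fit. Of 13014 genes 67 differed (0.515%), 41 with a higher and 26 with a lower level under GSK3368715. Both compounds were measured against the same vehicle libraries. Mnd1 had 197, 197 and 219 normalized counts under GSK3368715 and 66.2, 78.8 and 75.6 under MS023, a difference of 1.46 (95% interval 1.22 to 1.70, limma adjusted p = 0.000645). Nxpe4, of the neurexophilin and PC-esterase family, had 207, 206 and 209 in vehicle, 132, 144 and 146 under GSK3368715 and 46.2, 55.8 and 55.2 under MS023, a difference of 1.41 (95% interval 1.12 to 1.70, limma adjusted p = 0.00308). These 2 differences were called in all 20 alternatives. The groups of the 2 compounds did not overlap in either gene.

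Other genes were lower under GSK3368715 than under MS023. Gsta1 had 226, 219 and 227 normalized counts under MS023, and the difference was -0.99 (95% interval -1.34 to -0.63, limma adjusted p = 0.0321). The differences of Gsta1, Gsta4, Gstm1, Ftl1, Insig1, Plin4, Vars, Eif4g3 and Enox1 were not called once any single MS023 library was left out, with adjusted p in limma from 0.0528 to 0.160. Gsta4 had 1538, 1575 and 1549, with a difference of -0.56 (95% interval -0.70 to -0.42, limma adjusted p = 0.00952). Gstm1 had 4506, 4619 and 4899, with a difference of -0.45 (95% interval -0.58 to -0.31, limma adjusted p = 0.017). Ftl1 had 226892, 239605 and 266192, with a difference of -0.52 (95% interval -0.68 to -0.37, limma adjusted p = 0.017). In each the GSK3368715 libraries lay between vehicle and MS023. Of the 35 NRF2 genes, 7 were lower under GSK3368715 than under MS023 and 1 was higher, beside 26 and 41 of all 13014 genes. Without MS023 1, MS023 2 or MS023 3, only 2, 5 and 3 of all genes differed, so these list counts rest on all the MS023 libraries. Insig1 had 13029.8, 13125 and 12613 under MS023, a difference of -0.42 (95% interval -0.55 to -0.29, limma adjusted p = 0.0203). Of 34 sterol genes 20 were called higher under MS023, where 13.7% of all genes tested were. Between the compounds 3 of the sterol list differed, beside 0.515% of all genes tested. Plin4, a lipid droplet protein that was not called against vehicle, had 310.4, 239 and 256 in vehicle, 314, 415 and 279.6 under GSK3368715 and 729, 802 and 724 under MS023, a difference of -1.18 (95% interval -1.503 to -0.85, limma adjusted p = 0.0149).

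Vars had 14025, 14639 and 15590 normalized counts under MS023, a difference of 0.37 (95% interval 0.25 to 0.50, limma adjusted p = 0.0223). Eif4g3 had 2505, 2785 and 2786, a difference of 0.38 (95% interval 0.24 to 0.52, limma adjusted p = 0.0321). Enox1, a surface NADH oxidase that was not called against vehicle, had 134, 126 and 119 in vehicle, 65.6, 104 and 71.4 under GSK3368715 and 36.2, 31.7 and 30.03 under MS023, a difference of 1.25 (95% interval 0.81 to 1.69, limma adjusted p = 0.029). For Poln the difference was -0.18 (95% interval -0.49 to 0.13, limma adjusted p = 0.638), for Plxnc1 -0.01 (95% interval -0.88 to 0.86, limma adjusted p = 0.992) and for Pdk1 -0.10 (95% interval -0.25 to 0.06, limma adjusted p = 0.605). Those 3 intervals hold 0 and do not show that the compounds act alike. Leaving out single libraries gave between 2 and 115 genes that differed.

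**Figure D5:**
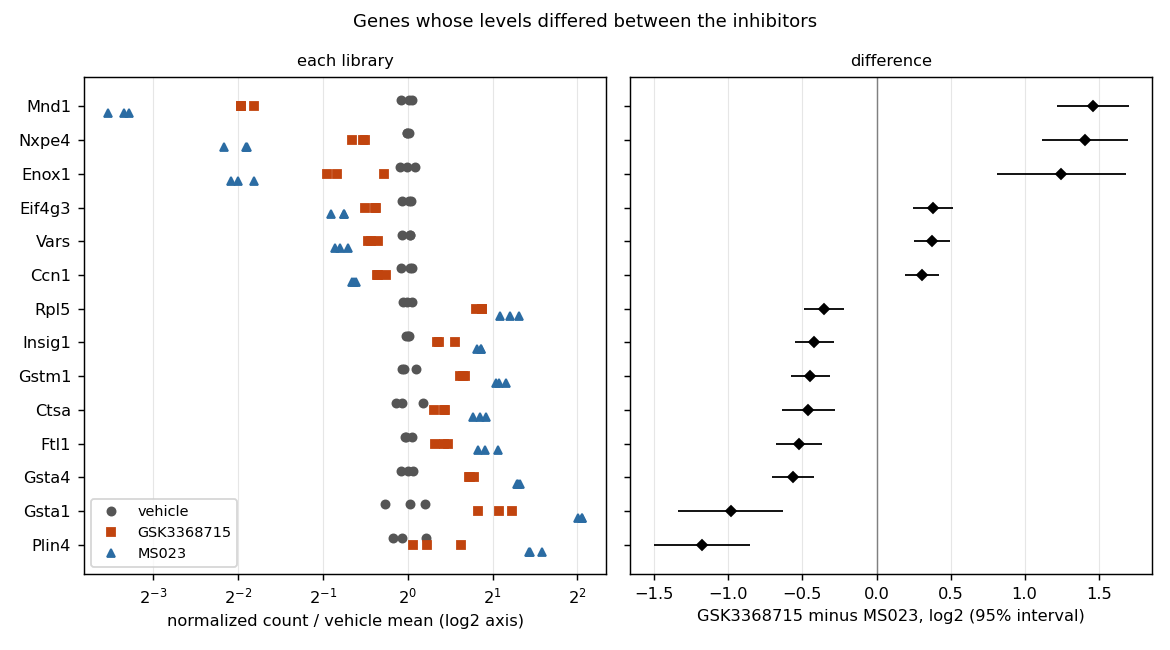
The 14 named genes whose level differed between the inhibitors. The left panel gives each library as a ratio to the vehicle mean (log2 axis) for vehicle (circles), GSK3368715 (squares) and MS023 (triangles), and the right panel gives the log2 difference GSK3368715 minus MS023 with its 95% interval. For all genes but Plin4 the GSK3368715 libraries lie between the vehicle and the MS023 libraries.

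The shPrmt1 and shControl libraries have a normalization of their own, and the genes named above were looked up in them. Of the 164 named genes called under GSK3368715, 151 were tested there and 74 were called, 72 of them in the same direction and 2 (Ccn1 and Krt18) in the opposite one. Of 79 that were higher under GSK3368715, 38 were called higher (7.5% of all genes were), and of 72 that were lower, 34 were called lower (7.17%). Poln changed by 4.03 (limma adjusted p = 2.2e-05), Bmp6 by 2.34 (limma adjusted p = 0.00175), Gsta1 by 2.44 (limma adjusted p = 0.000232) and Casp12 by 1.77 (limma adjusted p = 0.00234) in shPrmt1 cells. Mnd1 changed by -1.41 (limma adjusted p = 0.000481), Psg17 by -1.26 (limma adjusted p = 0.00525) and Padi2 by -1.89 (limma adjusted p = 0.00222). Slc8a3, Il4i1 and Bmf, at 0.63, 1.69 and 0.53, were not called there, and Plxnc1 and Mpeg1 had too few counts to be tested. Ptgs2 changed by 0.24 (limma adjusted p = 0.197), against -0.46 under GSK3368715, and Ccn1 by 0.32 (limma adjusted p = 0.011), against -0.32. The difference between the experiments was not tested.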

How the data were processed

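RNA was sequenced as paired-end reads of mRNA libraries in 15 samples. The authors quantified reads with Salmon 1.4.0 and deposited gene signal values, counts normalized by DESeq2 size factors, for mm10, as named in the submitters' processing notes and files. Their comparison tables (fold changes and p-values) were not used. Every value was a whole multiple of 1 constant a library (tolerance 0.001), so whole reads were recovered, and whether strand was used in counting is not given in the sources used here.

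Samples were grouped by the treatment label, and replicates are the labelled biological replicates, so p-values measure the spread between these libraries. Values were analysed as log2(normalized count + 1) with limma 3.58.1 (R 4.3.3, trended variance, empirical Bayes) in 1 fit of the 9 inhibitor and vehicle libraries, for genes with 10 or more normalized counts in 3 or more of them. P-values were two-sided and adjusted by Benjamini-Hochberg over all 13014 genes at 0.05. The knockdown was fitted apart. On recovered reads edgeR 4.0.16 (quasi-likelihood) called 1242 genes and DESeq2 1.42.0 called 1794. An exact permutation test of 3 against 3 cannot give a p under 0.1, so none is reported.

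The genes named are Prmt1, the 15 largest increases and 15 largest decreases outside the interferon list with no overlap of the groups, up to 4 called members of each list by size of change, each with a mean of 50 or more normalized counts in the higher group, and the 5 largest called differences between the inhibitors. Among the named genes, Bmp6, Mpeg1, Slc8a3, Il4i1 and Serping1 reached the mean of 50 only in treated cells. Psg19 and Arl6ip1 reached it only in vehicle cells. Other list members are named with values to describe a list. The genes, lists and tests were chosen with earlier results of these data known. Near-identical copies (95% identity over 30% of the transcript) and exon overlaps were checked in the annotation. Promoters came from RefSeq, and besides the motifs spelled out in the text the E2F site (GCGGGAA), the E-box (CACGTG), the AP-1 site (TGANTCA), the CRE (TGACGTCA), the NF-kB site (GGGAANNCC), the sterol element (TCACNCCAC), the ATF4 site (TGATGNAA) and the TATA box (TATAAA) were searched on both strands. In counts simulated for GSK3368715 against vehicle over 12887 genes, 53 of 67 genes changed 1.5-fold, 67 of 67 changed 2-fold and 66 of 66 changed 4-fold were recovered, with 5 unchanged genes among 191 calls. The simulation gave every gene the same dispersion and changed only genes with a mean of 50 or more reads. It checks that the code runs and does not give the recovery or the rate of false calls in the real libraries. A few genes and 1 sequence are not reported here.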

Additional observations from a re-analysis of the deposited data

Results flagged for a closer look

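The levels of 14 named genes differed between GSK3368715 and MS023 in limma, each given as the log2 difference GSK3368715 minus MS023. Mnd1 differed by 1.46, Nxpe4 by 1.41 and Enox1 by 1.25, and the levels were lower under MS023. Eif4g3 differed by 0.38, Vars by 0.37 and Ccn1 by 0.31, also with the lower level under MS023. Gsta1 differed by -0.99, Gsta4 by -0.56 and Gstm1 by -0.45, with the higher level under MS023. Ftl1 differed by -0.52, Ctsa by -0.46 and Insig1 by -0.42. Plin4 differed by -1.18. Plin4 and Enox1 were not called against vehicle. Rpl5 differed by -0.35, and its level is uncertain because reads are shared with copies. Mnd1 and Nxpe4 were called in all 20 alternatives, and the other 12 genes lost the call in 4 to 12 of them.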

How the results depend on the processing

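Under GSK3368715 1254 genes were called. A fit of the 6 libraries without MS023 called 577 (296 higher, 281 lower), and 114 of the 1254 (86 higher, 28 lower) had an absolute log2 fold change of 1 or more. Leaving out single libraries gave 586 to 1269 calls (323 to 672 higher, 263 to 630 lower) and 104 to 240 calls in programme lists, which held 234 calls in all 9 libraries and 101 with only the groups compared. Genes that differed between the inhibitors numbered 67, and 38 without a filter, 8 without a variance trend, 365 by DESeq2 and 2 to 115 with a library left out. Of the named genes 76 were called in the knockdown, and 46 to 91 with a library left out. The causes were not tested. With the replicate number as a block, 860 genes, 158 calls in lists, 4 differences between inhibitors and 95 named genes in the knockdown were called. The numbers are not taken as pairs, since deviations of same-numbered vehicle and GSK3368715 libraries correlated at 0.03, -0.07 and -0.10. In the knockdown each library correlated best with its own number, which is a hint from the data only. No named value changed sign. Of 3339 values of named genes under the alternatives 2752 kept their side of the threshold, and of 2040 list counts 475 moved by over 1.5 times. Of the 164 named genes called, 85 kept the call in all alternatives, 23 lost it in 1 to 4 and 56 in 5 or more. The share of calls that were higher was 53.6%, and 60.1% with equal totals. Depth, at 40119305 to 93697833 reads in the inhibitor experiment and 17284091 to 29233738 in the knockdown, limits genes with few reads.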

Other observations

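A few genes on no list and outside the naming rule were singled out after their values were seen. Angptl2, a secreted angiopoietin-like protein, had 5073, 5055 and 4975 normalized counts in vehicle cells and 2352, 2712 and 2797 under GSK3368715, a log2 change of -0.95 (SE 0.07, limma adjusted p = 0.000108). Ercc1, the partner of the XPF nuclease in excision repair, had 5228, 4846 and 4871 and 2967, 3089 and 3066, a log2 change of -0.71 (SE 0.06, limma adjusted p = 0.00024). Rbm4, a splicing regulator, had 1415, 1643 and 1582 and 852, 933 and 924, a log2 change of -0.77 (SE 0.07, limma adjusted p = 0.000492). Arsb, a lysosomal sulfatase, had 5985, 6203 and 6422 and 3892, 4027 and 4078, a log2 change of -0.63 (SE 0.05, limma adjusted p = 0.00024). These 4 genes fell with no overlap between the groups. Cxxc5, a CpG-binding protein, rose from 147, 131 and 151 to 344, 316 and 344, a log2 change of 1.22 (SE 0.10, limma adjusted p = 0.00024), and H2ax, the histone variant that is phosphorylated at DNA breaks, from 2927, 2278 and 2477 to 3788, 3788 and 4116, a log2 change of 0.61 (SE 0.09, limma adjusted p = 0.00266).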
